A study of Mus musculus with 9 samples.

Results

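Long stretches of mouse chromosomes 4, 11 and 17 were followed for shifts of open-chromatin signal between *Atrx* KO and WT mesenchymal progenitor cells (MPCs). The members were 8953 regions, 3073 on chromosome 4, 3731 on chromosome 11 and 2149 on chromosome 17, out of 47431 regions of the genome with an ATAC-seq peak in all 9 libraries and 135835 merged regions in all. They were chosen by their chromosome, after bins of these chromosomes had been seen to shift, so the differences between each clone and WT that selected them are given as a description, without tests. The cells were C3H/10T1/2, a mouse line used as a model of MPCs. WT was the isogenic control, which received a vector with Cas9 and no guide, and B10 and G7 were *Atrx* KO lines, each grown from 1 sorted clone of a different guide. Each line gave 3 libraries, so a shift of B10 or G7 belongs to that clone, and an effect of losing ATRX cannot be told apart from other differences between single clones.

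ATRX is a chromatin remodeller and works with the histone chaperone DAXX, which places a replacement histone H3 in heterochromatin and at chromosome ends. ATAC-seq uses a transposase that cuts accessible DNA, so the signal at a peak depends on how open a site is and also on how many copies of it the cells carry. The peak lists hold no read counts and no DNA input, and these contributions cannot be told apart here. The signal of a peak is given as its rank, the percentile of its −log10 q among all peaks of its library, with 100 the strongest. A shift is the mean rank of 3 clone libraries minus that of 3 WT libraries, in points, and the median over members was taken in bins of 5 Mb with at least 20 members.

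The libraries held from 76385 to 88535 peaks, and the median shift over all 47431 shared regions was 0.70 points in B10 and -0.03 in G7. Read depth is unknown. The *Atrx* promoter carried a peak in all 9 libraries, at ranks of 80.8 to 86.0, which says nothing on the coding lesion. Promoters of 9 of 11 mesenchymal markers were open in every library, and *Nt5e* had no promoter peak. Of 9 promoters of other cell types, 1 was open in every library (*Pecam1*) and 4 in none. The rest were open in some, such as *Cd68* in 8 and *Pou5f1* in 4. The libraries numbered 1 stood apart from those numbered 2 and 3. Across lines their deviations from the mean of the line correlated negatively with those of numbers 2 and 3 (-0.564 to -0.364 over members). Deviations within a line cancel out, which pushes such values down, but those between numbers 2 and 3 were positive (0.217 to 0.313). Shifts without the libraries numbered 1 are given beside the pieces of chromosomes 11 and 17. No test was made of whether depth or the number of a library moved with the shifts.

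Single members moved far more than the bins they lay in. To show what such sites are, the 200 bases around the summit (the middle one of the 3 WT summits) are printed for the member highest and the member lowest in both clones on chromosomes 4 and 11 and for the highest on chromosome 17, read from GRCm38, the assembly of mm10, on the plus strand. Capitals mark TGANTCA, the motif of AP-1 factors, and GGGCGG, that of SP and KLF factors, on either strand.
Akap2: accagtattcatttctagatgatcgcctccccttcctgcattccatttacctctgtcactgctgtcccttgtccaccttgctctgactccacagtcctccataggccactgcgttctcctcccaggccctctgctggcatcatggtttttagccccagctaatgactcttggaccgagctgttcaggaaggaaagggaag
Padi3: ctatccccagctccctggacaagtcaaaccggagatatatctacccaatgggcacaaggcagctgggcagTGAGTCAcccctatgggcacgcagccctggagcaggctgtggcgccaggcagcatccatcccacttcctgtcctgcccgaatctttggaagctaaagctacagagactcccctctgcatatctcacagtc
Myo18a: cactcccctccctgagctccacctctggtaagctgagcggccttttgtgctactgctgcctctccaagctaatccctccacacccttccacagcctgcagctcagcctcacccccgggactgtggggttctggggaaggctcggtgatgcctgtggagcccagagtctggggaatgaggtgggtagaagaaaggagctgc
Slc39a11: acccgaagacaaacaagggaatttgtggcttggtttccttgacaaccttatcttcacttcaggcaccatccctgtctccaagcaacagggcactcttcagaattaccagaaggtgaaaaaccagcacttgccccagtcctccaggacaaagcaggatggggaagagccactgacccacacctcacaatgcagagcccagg
Crim1: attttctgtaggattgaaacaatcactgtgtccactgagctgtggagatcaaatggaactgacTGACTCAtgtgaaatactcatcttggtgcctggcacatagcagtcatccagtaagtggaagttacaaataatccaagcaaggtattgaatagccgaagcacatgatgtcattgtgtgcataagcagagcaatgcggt

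The windows lay at chr4:57860129-57860328, chr4:140809164-140809363, chr11:77808092-77808291, chr11:113352306-113352505 and chr17:78363627-78363826, each named by the nearest protein-coding start site. TGANTCA stood once in the *Padi3* window and once in the *Crim1* window, and GGGCGG in none of those shown. Over all 47431 shared regions, 22.4% of such windows held TGANTCA and 19.9% held GGGCGG.

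On chromosome 4 the *Akap2* member, in an intron of a gene for an anchor of protein kinase A, was weak in WT and strong in both clones. Its ranks were 37.6, 4.57 and 7.40 in WT, 84.3, 84.6 and 82.8 in B10, and 83.9, 75.7 and 77.3 in G7. The groups did not overlap, although WT replicate 1 lay well above the other two. The *Padi3* member lay 0.909 kb from the start of a gene for a peptidylarginine deiminase, an enzyme known from hair follicles. Its ranks were 82.1, 86.1 and 82.0 in WT, 19.5, 43.8 and 42.5 in B10, and 32.3, 37.9 and 36.1 in G7. That all 6 KO libraries lay below WT was likewise set by the choice, and the drop was large.

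On chromosome 11 the *Myo18a* member, in an intron of an unconventional myosin gene, ranked 28.2, 39.2 and 26.9 in WT, 93.1, 93.6 and 92.2 in B10, and 82.1, 89.0 and 83.1 in G7. The *Slc39a11* member, in an intron of a zinc transporter gene, ranked 57.5, 73.1 and 76.3 in WT, 10.2, 17.3 and 37.4 in B10, and 6.10, 35.8 and 25.3 in G7. Separation from WT was a condition of the choice here too, and the KO libraries of the *Slc39a11* member spread widely. On chromosome 17 the *Crim1* member, in an intron of a gene for a membrane protein that binds bone morphogenetic proteins, ranked 6.04, 2.31 and 5.69 in WT, 47.3, 59.9 and 54.6 in B10, and 50.6, 60.4 and 43.7 in G7.

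**Figure D1:**
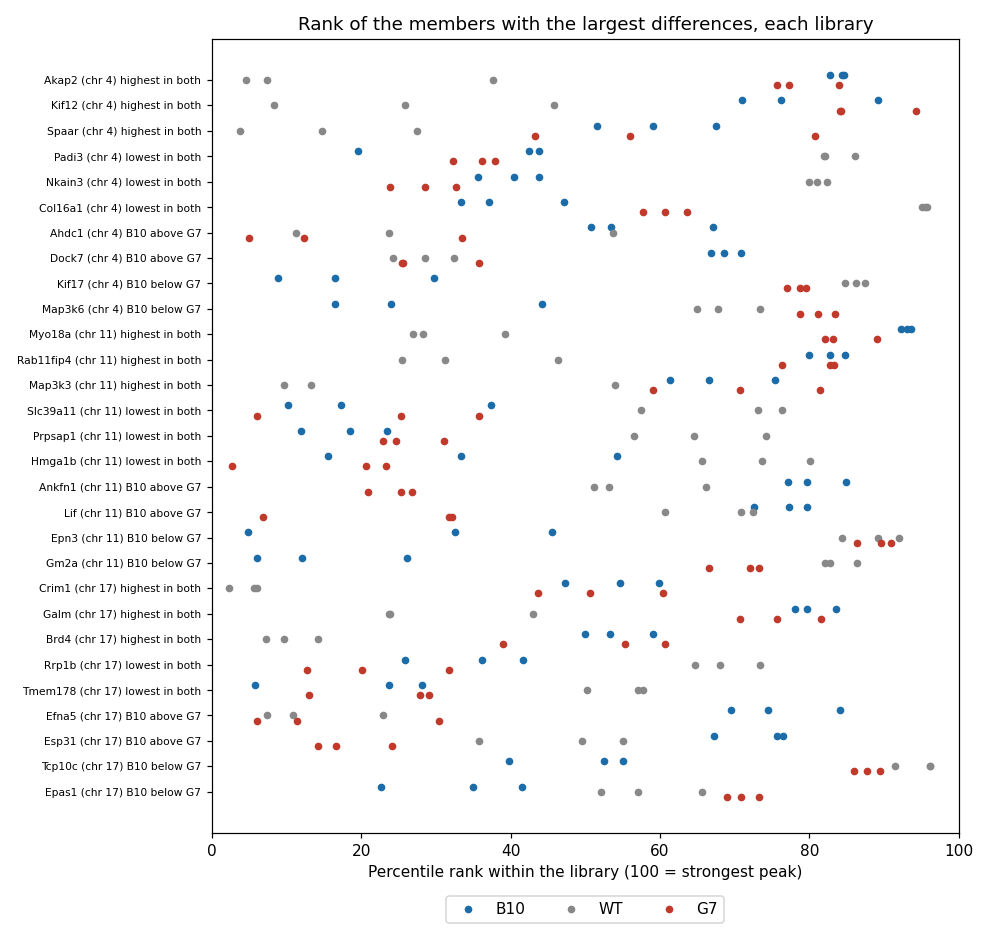
Rank within each library (horizontal axis, percentile) of the members with the largest differences, 1 row each, named by nearest gene, with 3 points per line. Rows highest or lowest in both clones were chosen so that the B10 and G7 points lie on the same side of all 3 WT points.

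Counts over the members describe how often the 3 libraries of a line all lay beyond those of another. On chromosome 4, 461 members (15.0%) ranked above WT in B10 and 488 (15.9%) below, beside 20.9% and 13.3% of all shared regions. In G7, 433 (14.1%) ranked above and 280 (9.11%) below, beside 14.2% and 15.1%. On chromosome 17, 630 members (29.3%) ranked above WT in B10 and 203 (9.45%) below, and in G7 232 (10.8%) above and 388 (18.1%) below. Between the clones, B10 ranked above G7 at 696 members of chromosome 17 (32.4%) and below it at 84 (3.91%), beside 19% and 9.62% of all shared regions. On chromosome 11, 611 members (16.4%) ranked above WT in B10 and 531 (14.2%) below, and in G7 627 (16.8%) above and 486 (13.0%) below. Between the clones the counts there were 535 (14.3%) and 573 (15.4%).

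Taken over a whole chromosome the shifts were small. On chromosome 4 the median was 0.13 points in B10 (0.58, 0.62 and -0.24 by library) and 0.54 in G7 (0.90, 0.68 and 0.39). On chromosome 11 it was 0.23 in B10 (0.43, 0.55 and 0.07) and 0.27 in G7 (0.67, 0.32 and 0.30). Chromosome 17 gave 2.07 in B10 (2.29, 2.23 and 1.52) and -0.66 in G7 (0.02, -0.59 and -0.92). The medians of the bins varied most, among 20 chromosomes, on chromosome 4 for B10 (SD 2.60 points over 30 bins), and next to most on chromosome 11 for G7 (SD 2.38 over 24 bins). By this SD, B10 stood 15th on chromosome 11 and 4th on chromosome 17. G7 stood 13th on chromosome 4 and tied with chromosome 3 for 8th on chromosome 17. Some other chromosomes shifted more as a whole, such as 6 (5.68 points) and 13 (4.92) in B10 and 2 (-3.9) and 8 (4.17) in G7. The lowest and highest B10 bins of chromosome 4, at -4.45 and 11.5 points, were neighbours with only 25 members each.

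**Figure D2:**
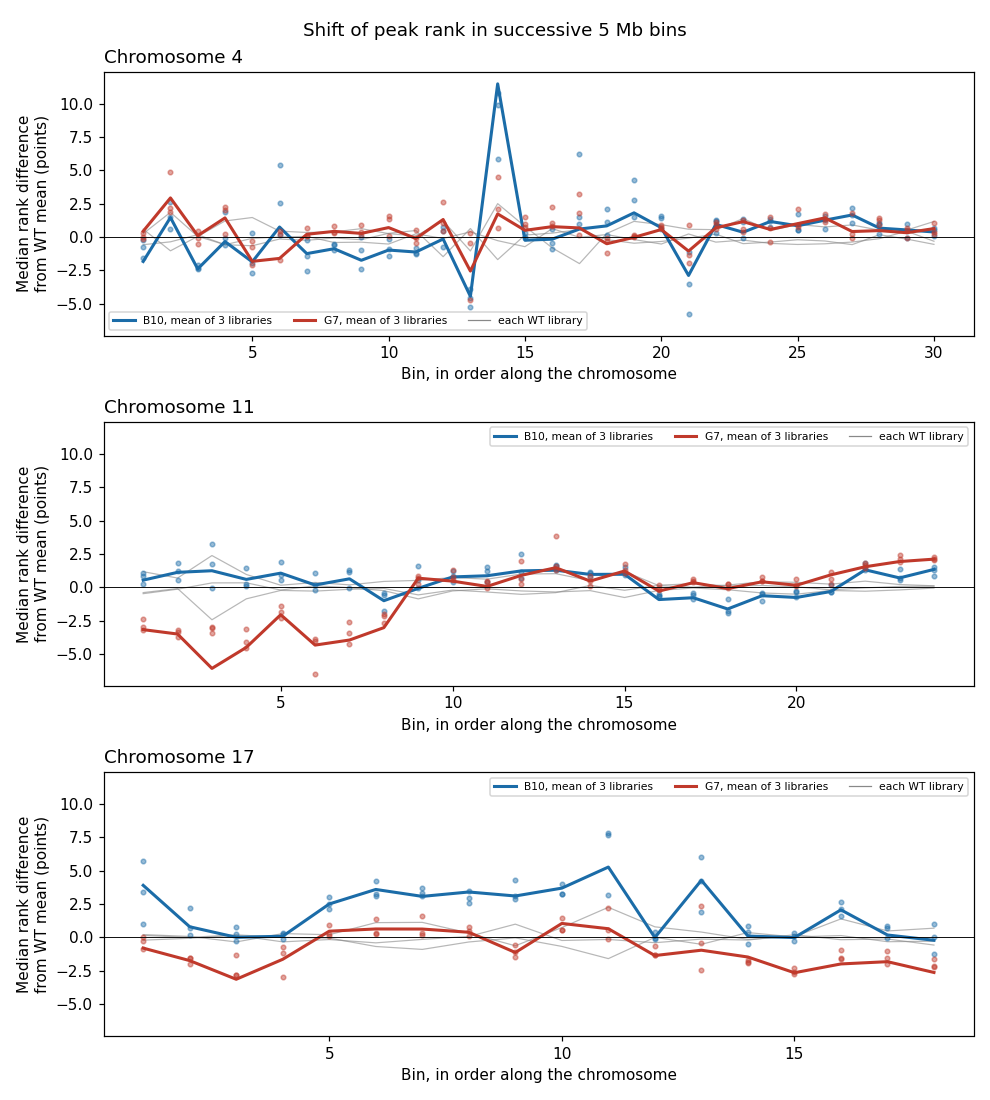
Median rank difference from the WT mean (vertical axis, points) in 5 Mb bins with at least 20 members, in order along each chromosome, where lines give the difference of line means, points the 3 libraries of a clone and grey lines each WT library. G7 lies below WT over the first 8 bins of chromosome 11, B10 lies above WT in most bins of the middle of chromosome 17 but not from 55 to 60 Mb (-0.01), and 1 bin of chromosome 4 stands out at 11.5 points in B10.

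Steps along a chromosome were placed by cutting the ordered members into pieces of at least 20 members with constant level, a method chosen after seeing the data. It also found steps elsewhere, on 5 of the 17 other chromosomes in B10 and on 6 of 17 in G7, so steps of this kind were not particular to these chromosomes. On chromosome 11, G7 had steps at 44.1 and 115.2 Mb. The 650 members before 44.1 Mb shifted by -3.60 points in G7 (-2.87, -3.11 and -3.57 by library), with all 3 libraries low, while B10 was at 0.59 there (0.93, 1.10 and 0.14), close to its median over all shared regions. Past the step the G7 median was 0.49 over 2580 members, and from 115.2 Mb it was 2.04 over 501 members (2.07, 2.33 and 2.12). The step near 44 Mb was found in each G7 library alone, at 44.4, 44.1 and 44.1 Mb, and in no WT library set against the other two. The step at 115.2 Mb stood there in G7 replicate 3 and at 107.0 Mb in G7 replicate 2, was not found in G7 replicate 1, and was absent with a penalty of 6. Without the libraries numbered 1, the first piece shifted by -3.28 points in G7 and the last by 2.00.

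In this first piece of chromosome 11, 36.3% of members ranked below all WT libraries in G7 and 5.38% above, beside 15.1% and 14.2% of all shared regions. A positive G7 shift was seen in 23.1% of its members, where the G7 median over all shared regions was -0.035 points. The G7 shift was -2.28 points at promoters, within 1 kb of a start site, and -4.75 elsewhere. In members of low, middle and high WT rank, cut at 57.1 and 79.5, it was -1.21, -6.59 and -2.95 points. WT rank is also subtracted in the shift, and over chromosome 4 G7 stood at 3.47, -0.35 and 0.29 in these classes. Site class was not separated from WT rank. Calls of presence, which come from the same peak lists and so are not separate support, went the same way as the G7 shift. They were made over all 97338 regions with a peak in at least 2 of 3 libraries of any line. There, 153 of 1358 regions (11.3%) were lost in G7, with peaks in at least 2 WT libraries and no G7 library, and 44 (3.24%) were gained, beside 7.42% lost and 5.69% gained over all such regions. In B10, 115 (8.47%) were lost and 111 (8.17%) gained, beside 7.58% and 10.4%.

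The piece holds the alpha-globin locus, where ATRX is known to act in red blood cell precursors. *Hba-a1* and *Hba-a2* had no promoter member. *Nprl3*, which carries the enhancers of these genes in its introns, had a promoter member with ranks of 90.5, 87.3 and 87.9 in WT, 92.1, 91.1 and 89.8 in B10, and 87.4, 85.0 and 86.3 in G7. The G7 and WT ranks overlapped. An intronic member 9.13 kb from *Lif*, the gene of the cytokine LIF, ranked 72.4, 70.8 and 60.6 in WT, 72.6, 79.7 and 77.3 in B10, and 31.8, 32.1 and 6.86 in G7. This member lay far below WT in G7. It was picked for its large difference between the clones, so its distance from the shift of its piece is not a separate result.

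B10 changed at other places of chromosome 11, at 80.1 and 104.6 Mb. Its median was 0.79 points before them (1.21, 1.11 and 0.51 by library, 1835 members), -0.86 between them (-0.55, -0.59 and -0.99, 1039 members) and 0.77 after (0.60, 1.24 and 0.65, 857 members). The first of these steps stood at 79.7, 80.1 and 80.1 Mb in the single libraries and the second at 100.5, 107.1 and 104.6 Mb. Set against the B10 median over all shared regions, the 3 values were 0.09, -1.57 and 0.07, so only the middle piece stood away from it. The members beside the boundary at 80 Mb were the promoter of *Suz12*, a Polycomb subunit (0.54 points in B10), and an intergenic member 14.4 kb from *Crlf3* (-4.50 points). Without the libraries numbered 1 the medians of B10 were 0.89, -0.74 and 0.88 points. The difference between the clones on this chromosome, which does not use WT, had 5 steps. They lay at 42.1, 85.5, 86.1, 110.3 and 113.3 Mb, and none lay at 80.1, 104.6 or 115.2 Mb.

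On chromosome 17, G7 had steps at 21.5 and 66.4 Mb, and its median was -1.85 points before (-1.34, -1.25 and -2.24 by library, 385 members), 0.34 between (1.01, 0.15 and 0.09, 1145 members) and -2.47 after (-1.87, -2.05 and -2.47, 619 members). These steps did not recur in every library. G7 replicate 1 had steps at 21.5 and 56.2 Mb, G7 replicate 2 only at 87.7 Mb and G7 replicate 3 only at 66.4 Mb, and with a penalty of 6 only the one at 66.4 Mb was found. The mean of B10 had no step by the same method, though B10 replicate 3 alone had steps at 26.0 and 55.9 Mb. With a penalty of 3 the mean of B10 had steps at 25.9 and 55.9 Mb. Within the bounds of the G7 pieces, B10 was higher in the middle, at 3.02 points (3.28, 3.06 and 2.61). It was at 0.49 before this piece and at 0.16 after it. Both clones were set against the same WT libraries, so a like shape is not independent evidence. Without the libraries numbered 1, G7 stood at -1.84, 0.27 and -2.30 points in these pieces and B10 at 3.23 in the middle one. The difference between the clones, which does not use WT, had 1 step on this chromosome, at 88.6 Mb. No step appeared in any WT library against the other two.

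The middle piece of chromosome 17 is rich in promoters, which made up 42.9% of its members, against 24.7% before and 20.7% after it. GGGCGG stood in 26.4% of its windows, against 14.5% and 15.0%, and TGANTCA in 16.1%, against 24.9% and 25.7%. In B10, 40.0% of its members ranked above all WT libraries and 7.25% below, beside 20.9% and 13.3% of all shared regions. The B10 shift was 2.45 points at promoters and 4.31 elsewhere, so it was seen in both classes. In members of low, middle and high WT rank it was 9.89, 4.19 and 1.87 points. WT rank is also subtracted in the shift, and members of low WT rank were raised in B10 elsewhere too. They stood at 5.68 before and 6.86 after this piece, at 4.41 over chromosome 4 and at 2.51 to 7.28 in the pieces of chromosome 11. Site class was not separated from WT rank here either. Of 2286 regions of the middle piece, 298 (13.0%) were gained and 94 (4.11%) lost in B10, beside 10.4% and 7.58% of all such regions, and in the last piece 13.9% were gained and 6.69% lost.

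**Figure D3:**
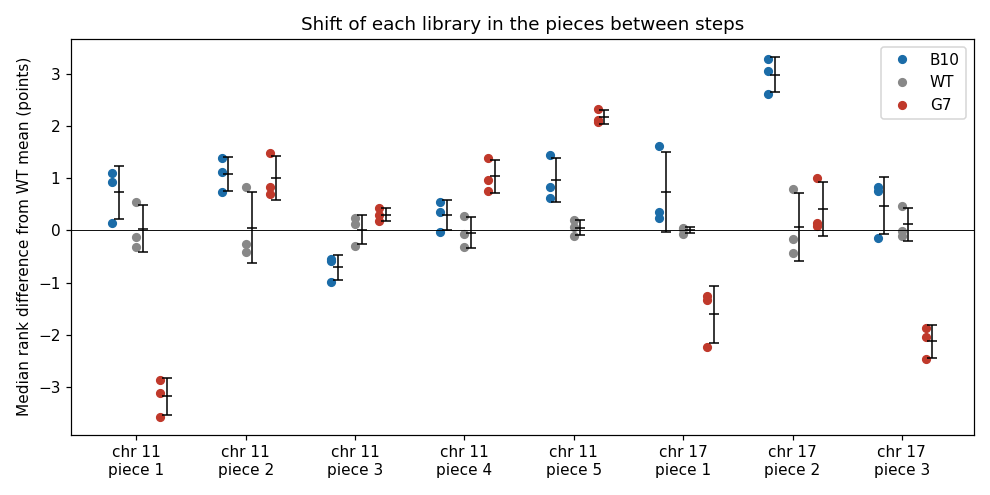
Median rank difference from the WT mean (vertical axis, points) of each library in the pieces of chromosomes 11 and 17 that the steps of either clone bound, numbered along the chromosome, with bars for the mean and SD of 3 libraries. The 3 G7 points are lowest in the first piece of chromosome 11 (-2.87 to -3.57), and the 3 B10 points highest in the second piece of chromosome 17 (2.61 to 3.28).

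The shifts depended on the measure of signal. Fold enrichment, the other value of each peak, is a ratio of its signal to the background around it. Ranked by fold enrichment, the first piece of chromosome 11 shifted by -0.47 points in G7 in place of -3.60, the last by 0.44 in place of 2.04, and the outer pieces of chromosome 17 by -0.15 and 0.02 in place of -1.85 and -2.47. B10 between 80.1 and 104.6 Mb moved from -0.86 to 1.25 points, beside a median over all shared regions of 1.67 in B10 by fold enrichment. Set against the median of each measure, this piece went from -1.57 to -0.42 points. The middle of chromosome 17 was at 3.02 points in B10 by −log10 q and 2.79 by fold enrichment, where its outer pieces stood at 1.37 and 1.80. Set against the same medians, the middle piece fell from 2.31 to 1.12 points. No step was found on any of the 3 chromosomes in the differences of log2 fold enrichment, so the steps above are steps of −log10 q.

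**Figure D4:**
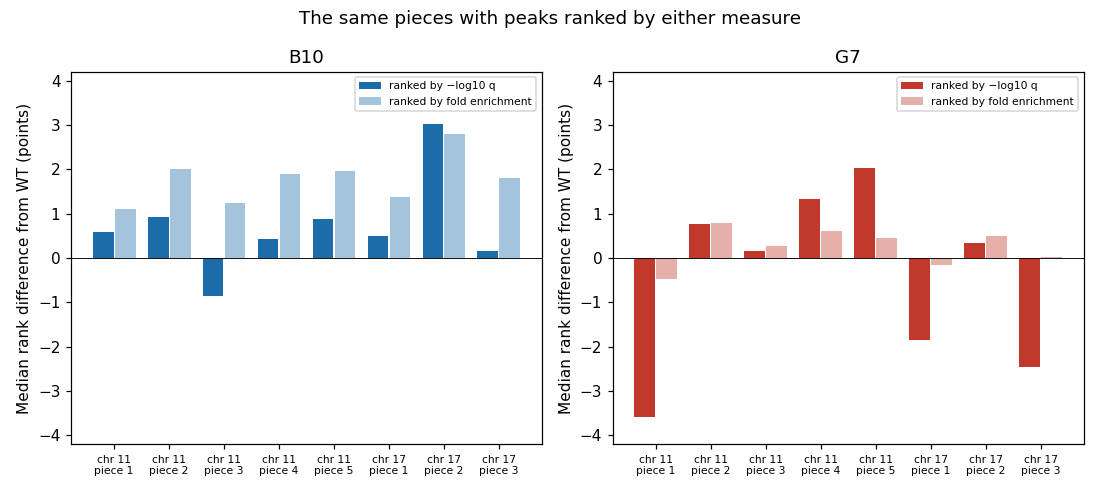
Median rank difference from WT (bars, points) in the same numbered pieces for B10 and G7, with peaks ranked by −log10 q (dark) or by fold enrichment (pale). The G7 bar of the first piece of chromosome 11 shrinks from -3.60 to -0.47, and the B10 bars of the second piece of chromosome 17 are 3.02 and 2.79, which set against the B10 median over all shared regions by each measure are 2.31 and 1.12.

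Chromosome 4 had no step in the mean of either clone. Single libraries had some, at 9.0 and 62.7 Mb in B10 replicate 2, at 9.0 and 53.1 Mb in B10 replicate 3 and at 9.8 Mb in G7 replicate 2, and the difference between the clones had 1 at 94.6 Mb. The bin from 70 to 75 Mb, the largest value in B10, shifted by 11.5 points in B10 (10.8, 9.92 and 5.87 by library) and 1.74 in G7, over 25 members, while the bin before it, also with 25 members, was low. Just inside the mark of 5 points used for a shifted bin was the bin from 50 to 55 Mb of chromosome 17 in B10, at 5.28 points, and just outside it was the bin from 65 to 70 Mb of chromosome 4 in B10, at -4.45. In G7 only the bin from 10 to 15 Mb of chromosome 11 passed, at -6.09 points, although its single libraries gave -3.45, -3.09 and -2.98, and the next was at -4.51. Without WT replicate 1 or WT replicate 2, 0 bins passed in G7. With at least 50 members per bin, 0 bins passed in B10 and 0 in G7.

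The boundary between neighbouring bins whose medians differed most lay at 70 Mb on chromosome 4, with a change of 16.0 points in B10 and 4.28 in G7. On chromosome 11 it lay at 80 Mb in B10 (-1.90 points) and at 45 Mb in G7 (3.71), and on chromosome 17 at 55 Mb in B10 (-5.29) and at 45 Mb in G7 (2.17). The boundaries of B10 stayed in place when any 1 library was left out, while those of G7 did not. The G7 boundary of chromosome 11 moved to 20 Mb without G7 replicate 1 and to 25 Mb without G7 replicate 2. That of chromosome 4 moved to 10 Mb without G7 replicate 1, to 20 Mb without G7 replicate 2 or WT replicate 3, and to 5 Mb without WT replicate 2. On chromosome 17 it moved to 55 Mb without G7 replicate 2 or WT replicate 1 and to 20 Mb without WT replicate 2 or 3. Beside the boundary of chromosome 11 in G7 lay an intronic member of *Ebf1*, a transcription factor gene of B cells and fat cell precursors, at 3.69 points in G7, and a member 95.7 kb from its start at -4.59 points. Beside that of chromosome 17 lay a promoter member of *Runx2* at -0.93 points in G7 and, in an intron of *Supt3*, a member at 14.5 points in G7 and 32.0 in B10. On chromosome 4 the members beside it were intergenic, 471 kb from *Tlr4*, at 12.8 points in B10, and exonic in *Cdk5rap2*, a centrosome gene, at 15.4 points. In B10 on chromosome 17 they were 86.8 kb from *Slc5a7* (17.1 points) and intronic in *Pot1b*, a telomere protein gene (6.09 points).

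Within the bin of chromosome 4 the high members clustered around *Tle1*, a Groucho-type corepressor gene. An intergenic member 119 kb from its start ranked 52.1, 28.6 and 20.5 in WT, 81.7, 84.0 and 83.2 in B10, and 77.0, 62.3 and 71.2 in G7. The *Tle1* promoter itself, ranked 97.1 to 99.1 in WT, stood at 96.8 to 98.5 in B10 and 98.0 to 99.1 in G7. The lines overlapped at the promoter and not at the distal member. The promoters of *Megf9* and *Kdm4c*, an H3K9 demethylase gene, shifted by -0.72 and -1.80 points in B10.

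A shorter run on chromosome 11, from 67.4 to 68.1 Mb, was higher in both clones. It was singled out after its values were seen, with a lower penalty for steps. Its 20 members shifted by 15.8 points in B10 and 13.1 in G7, and 19 of 20 were positive in each. Most lay in *Gas7*, a growth arrest gene of the actin cytoskeleton, or in *Stx8*, a syntaxin gene. A *Gas7* promoter member at chr11:67586050-67586922 ranked 85.4, 80.4 and 79.7 in WT, 98.9, 98.7 and 98.7 in B10, and 99.1, 97.4 and 96.9 in G7. An intronic *Gas7* member ranked 66.4, 66.4 and 66.2 in WT, 84.9, 84.5 and 84.5 in B10, and 84.6, 82.2 and 84.0 in G7. In both the KO libraries lay clear of WT.

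Other members were picked as those that differed most between the clones, where B10 and G7 ranks did not overlap. The *Kif17* promoter on chromosome 4, of a kinesin motor gene, ranked 87.5, 84.7 and 86.2 in WT, 16.5, 8.88 and 29.7 in B10, and 79.6, 78.8 and 77.0 in G7. The *Gm2a* promoter on chromosome 11, of a gene for the activator of ganglioside breakdown, ranked 86.3, 82.8 and 82.1 in WT, 12.1, 6.05 and 26.1 in B10, and 72.1, 73.2 and 66.5 in G7. Both promoters ranked below all WT and G7 libraries in B10, in bins with B10 medians of 1.27 and 0.86 points. On chromosome 17 a member 59.1 kb from *Efna5*, an ephrin gene, ranked 22.9, 7.40 and 10.8 in WT, 84.1, 74.4 and 69.5 in B10, and 30.4, 11.4 and 5.98 in G7. The *Epas1* promoter, of the hypoxia factor HIF-2α, ranked 65.6, 57.0 and 52.1 in WT, 41.5, 34.9 and 22.7 in B10, and 73.2, 70.9 and 68.9 in G7, so the clones lay on opposite sides of WT.

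Promoters of lineage genes moved in both directions. Of 25 mesenchymal and matrix genes on these chromosomes, 18 had a promoter member, with median shifts of 0.87 points in B10 and 1.45 in G7, beside 0.43 and 0.40 over the 2516 promoter members of coding genes. Single shifts ran from -7.59 to 12 points in B10 and from -10.9 to 17.6 in G7. In B10, 2 ranked above all WT libraries and 3 below, and in G7 4 above and 1 below. Over all shared regions the shares were 20.9% above and 13.3% below in B10, and 14.2% and 15.1% in G7, and with so few genes in a list nothing is read from this and the following counts. *Runx2*, the regulator of bone formation, lies in the middle piece of chromosome 17, and another promoter member of it ranked 74.7, 69.6 and 68.6 in WT, 84.9, 75.3 and 80.4 in B10, and 77.2, 74.5 and 74.7 in G7. The promoter of *Thbs2*, a matrix glycoprotein gene, ranked 94.3, 95.6 and 95.3 in WT, 83.5, 90.2 and 89.2 in B10, and 84.9, 84.2 and 83.3 in G7.

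Of 15 adipocyte and lipid genes, 14 had a promoter member, with medians of 0.19 points in B10 and -0.06 in G7. In B10 1 ranked above WT and 1 below, and in G7 2 and 2. *Fasn*, the fatty acid synthase gene, stood at 98.9 to 99.7 in WT and 99.6 to 99.7 in B10, near the top of the scale, where a rank has little room to rise. Of 20 cell cycle genes and tumour suppressors, 16 had one, with medians of 0.19 and 0.41 points, and B10 ranked above WT at 1 and below at none, G7 above at 3 and below at 2. *Cdkn2a* and *Cdkn2b*, inhibitors of the G1 kinases, had no promoter member.

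Of 20 genes linked to ATRX or to chromatin, 18 had a promoter member, with medians of 0.49 points in B10 and 0.68 in G7. B10 ranked above WT at 4 and below at none, and G7 above at 5 and below at 1. *Daxx*, the partner of ATRX, lies in the middle piece of chromosome 17, and its promoter ranked 97.5, 96.7 and 97.0 in WT, 99.1, 98.7 and 99.1 in B10, and 98.2, 97.5 and 97.9 in G7. Of 12 antigen presentation and interferon genes, 9 had one, with medians of -0.02 and -0.10 points, B10 above WT at 2 and below at 2, and G7 above at 1 and below at 1. *Tap1* and *Psmb9* share 1 promoter member, so they count as 1 measurement. It ranked 90.2, 90.9 and 93.1 in WT, 84.2, 82.0 and 78.0 in B10, and 94.4, 93.9 and 92.7 in G7, low in B10 within a piece that was high.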

How the data were processed

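Omni-ATAC-seq peak lists of 9 libraries (WT, B10 and G7, 3 each) were used. The authors aligned reads to mm10 with Rsubread after Rfastp, and called peaks per replicate with MACS2, whose version is not given in the sources used here. The deposited fold enrichment is a ratio of signal to background, and the deposited −log10 q is the peak caller's own. Peak names mention an input that the methods do not name. Libraries were grouped by their titles. Between 2 and 7 mitochondrial peaks per list were left out. Overlapping or touching peaks of the autosomes and sex chromosomes were merged, and the highest peak stood for a region. The lowest −log10 q of a list was between 1.30 and 1.31.

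Members and gene lists were chosen with earlier results of these data known, and no test was run. Steps were placed by optimal partition over blocks of 5 members, with values clipped at 3 robust SDs and a penalty of 4 log(n) per step (3 and 6 as alternatives). The method was tried on G7 values shuffled along each chromosome, with or without an added step. Shuffling removes any likeness of neighbouring members, so this does not tell how often such likeness gives a step. Detection of steps smaller than 4 points was not required. Named members were those beside the largest step, the 3 highest and lowest in both clones, the 2 that differed most between clones each way, and the promoter members of listed genes. The highest and lowest were taken only where all 3 libraries of both clones ranked beyond all 3 of WT. Those that differed most between clones were taken only where B10 and G7 ranks did not overlap. Among all of these, 1 member is not reported here. Stretches around *Tle1* and *Gas7* were named after their values were seen. Same-numbered libraries deviated together from their lines (correlations over members of 0.326 to 0.673), so the numbers were taken to pair the libraries. Libraries numbered 2 also correlated with those numbered 3 of other lines, at 0.217 to 0.313, so the pairing of these is less marked. No pair of libraries shared over 0.379% of intervals. Annotation was GENCODE M21. Python 3 tools were pandas and numpy.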

Additional observations from a re-analysis of the deposited data

Results flagged for a closer look

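In 3 pieces every B10 library lay on one side of the WT mean and every G7 library on the other, and the difference between the clones was not tested. Before 44.1 Mb of chromosome 11, B10 exceeded G7 by 4.19 points (0.59 against -3.60). Between 80.1 and 104.6 Mb of chromosome 11 the difference was -1.01 points (-0.86 against 0.15), and before 21.5 Mb of chromosome 17 it was 2.35 points (0.49 against -1.85). Single WT libraries lay at 0.547, -0.129 and -0.314 points before 44.1 Mb of chromosome 11. Between 80.1 and 104.6 Mb they lay at 0.228, -0.308 and 0.115. The B10 replicate 3 value of 0.144 in the former and the G7 replicate 2 value of 0.18 in the latter lay within the WT range. Set against the B10 median over all shared regions, B10 was at -0.11 points before 44.1 Mb of chromosome 11 and at -0.21 before 21.5 Mb of chromosome 17, on the same side as G7, so in these pieces the opposite signs depend on the centring. Groups of 3 libraries are too small for a search for outlying libraries.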

How the results depend on the processing

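The counts of bins past 5 points, 2 in B10, 1 in G7 and 4 apart between the clones, changed when single libraries were left out. Shifted bins of B10 numbered 4 without WT replicate 1 and 1 without WT replicate 3, those of G7 0 without WT replicate 1 or 2 and 3 without WT replicate 3, and bins apart 2 without B10 replicate 2, 7 without B10 replicate 3 and 7 without WT replicate 2. The cause was not tested for any of the values below, which moved by more than the spread of libraries, by over 1.5 times for a count, or by over 5 Mb for a step.

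With peaks ranked by fold enrichment, the shift was 1.27 points on chromosome 4 in B10, 1.62 on chromosome 11 in B10 and 0.281 on chromosome 17 in G7. The shift was 1.74 points over the start to 80.1 Mb of chromosome 11 in B10, 1.25 over 80.1 to 104.6 Mb of chromosome 11 in B10, 1.92 over 105 to 122 Mb of chromosome 11 in B10, -0.474 over the start to 44.1 Mb of chromosome 11 in G7, 0.443 over 115 to 122 Mb of chromosome 11 in G7, -0.154 over the start to 21.5 Mb of chromosome 17 in G7 and 0.0243 over 66.4 to 94.88 Mb of chromosome 17 in G7. The bins were 1 shifted in B10, 0 shifted in G7 and 2 apart between the clones. The largest step lay at 20 Mb on chromosome 11 in G7 and 65 on chromosome 17 in B10. With each list cut to the size of the smallest, the shift was -1.09 points on chromosome 4 in B10, 0.871 on chromosome 4 in G7, -0.525 on chromosome 11 in B10, 0.543 on chromosome 11 in G7 and 0.892 on chromosome 17 in B10. The shift was -0.0353 points over the start to 80.1 Mb of chromosome 11 in B10, -2 over 80.1 to 104.6 Mb of chromosome 11 in B10, 0.0528 over 105 to 122 Mb of chromosome 11 in B10, -3.13 over the start to 44.1 Mb of chromosome 11 in G7, 0.815 over 44.1 to 115.2 Mb of chromosome 11 in G7, 2.36 over 115 to 122 Mb of chromosome 11 in G7, -2.13 over 66.4 to 94.88 Mb of chromosome 17 in G7 and 2.17 over 21.5 to 66.38 Mb of chromosome 17 in B10. The largest step lay at 20 Mb on chromosome 4 in G7, 37.5 on chromosome 11 in B10 and 55 on chromosome 17 in G7. Centred on all shared regions, the shift was -0.571 points on chromosome 4 in B10, -0.475 on chromosome 11 in B10 and 1.37 on chromosome 17 in B10. The shift was 0.0913 points over the start to 80.1 Mb of chromosome 11 in B10, -1.57 over 80.1 to 104.6 Mb of chromosome 11 in B10, 0.065 over 105 to 122 Mb of chromosome 11 in B10 and 2.31 over 21.5 to 66.38 Mb of chromosome 17 in B10. Counts of bins were 2 apart between the clones. Away from promoters, the shift was 0.263 points on chromosome 4 in G7 and -1.66 on chromosome 17 in G7. The shift was -1.54 points over 80.1 to 104.6 Mb of chromosome 11 in B10, 1.56 over 105 to 122 Mb of chromosome 11 in B10, -4.75 over the start to 44.1 Mb of chromosome 11 in G7, 2.96 over 115 to 122 Mb of chromosome 11 in G7, -2.64 over the start to 21.5 Mb of chromosome 17 in G7, -3.37 over 66.4 to 94.88 Mb of chromosome 17 in G7 and 4.31 over 21.5 to 66.38 Mb of chromosome 17 in B10. Counts of bins were 8 shifted in B10, 3 shifted in G7 and 13 apart between the clones. The boundary of the rule fell at 10 Mb on chromosome 4 in B10, 20 on chromosome 4 in G7, 20 on chromosome 11 in G7 and 55 on chromosome 17 in G7. With replicate 1 alone, the shift was 0.0735 points on chromosome 4 in G7, 0.03 on chromosome 11 in G7 and 1.39 on chromosome 17 in B10. The shift was -1.21 points over 80.1 to 104.6 Mb of chromosome 11 in B10, 0.269 over 105 to 122 Mb of chromosome 11 in B10, 0.165 over 44.1 to 115.2 Mb of chromosome 11 in G7, 1.66 over 115 to 122 Mb of chromosome 11 in G7, -2.92 over 66.4 to 94.88 Mb of chromosome 17 in G7 and 2.33 over 21.5 to 66.38 Mb of chromosome 17 in B10. Bins past 5 points were 2 shifted in G7. The boundary of the rule fell at 30 Mb on chromosome 4 in B10, 20 on chromosome 11 in G7 and 20 on chromosome 17 in G7. At promoters alone, the shift was -0.154 points on chromosome 17 in G7. The shift was -0.405 points over 80.1 to 104.6 Mb of chromosome 11 in B10, 0.353 over 105 to 122 Mb of chromosome 11 in B10, -2.28 over the start to 44.1 Mb of chromosome 11 in G7, 1.41 over 115 to 122 Mb of chromosome 11 in G7, -1.25 over 66.4 to 94.88 Mb of chromosome 17 in G7 and 2.45 over 21.5 to 66.38 Mb of chromosome 17 in B10. The bins were 0 shifted in B10, 0 shifted in G7 and 0 apart between the clones. The boundary of the rule fell at 145 Mb on chromosome 4 in B10, 110 on chromosome 11 in B10 and 52.5 on chromosome 17 in G7. With peaks of −log10 q of at least 5, the shift was -1.27 points over 80.1 to 104.6 Mb of chromosome 11 in B10, -4.29 over the start to 44.1 Mb of chromosome 11 in G7, -2.53 over the start to 21.5 Mb of chromosome 17 in G7 and -2.98 over 66.4 to 94.88 Mb of chromosome 17 in G7. Counts of bins were 3 shifted in G7. The boundary of the rule fell at 20 Mb on chromosome 4 in G7, 37.5 on chromosome 11 in B10 and 20 on chromosome 17 in G7. With peaks required to cover most of the merged region, the shift was -3.15 points over the start to 44.1 Mb of chromosome 11 in G7 and 1.7 over 115 to 122 Mb of chromosome 11 in G7. Counts of bins were 0 shifted in B10 and 1 apart between the clones. The widest change between bins was at 115 Mb on chromosome 4 in B10, 20 on chromosome 4 in G7, 10 on chromosome 11 in G7 and 52.5 on chromosome 17 in G7. With the median of 3 libraries, the shift was 2.19 points over 115 to 122 Mb of chromosome 11 in G7. Counts of bins were 0 shifted in G7. The largest step lay at 20 Mb on chromosome 4 in G7 and 110 on chromosome 11 in B10. With the replicate block, the paired difference of same-numbered libraries, the shift was -2.48 points over the start to 21.5 Mb of chromosome 17 in G7. Neighbouring bins differed most at 20 Mb on chromosome 4 in G7 and 20 on chromosome 17 in G7. In bins of 2.5 Mb, the bins were 6 shifted in B10, 4 shifted in G7 and 7 apart between the clones. The widest change between bins was at 110 Mb on chromosome 11 in B10 and 20 on chromosome 17 in G7. In bins of 10 Mb, bins past 5 points were 1 shifted in B10 and 2 apart between the clones. Neighbouring bins differed most at 20 Mb on chromosome 4 in G7 and 20 on chromosome 17 in G7. With bins from 2.5 Mb on, counts of bins were 1 shifted in B10. The widest change between bins was at 148 Mb on chromosome 4 in G7, 108 on chromosome 11 in B10, 17.5 on chromosome 11 in G7 and 87.5 on chromosome 17 in G7. With at least 50 members per bin, the bins were 0 shifted in B10, 0 shifted in G7 and 2 apart between the clones. Neighbouring bins differed most at 10 Mb on chromosome 4 in B10, 20 on chromosome 4 in G7 and 52.5 on chromosome 17 in G7. With replicates 2 and 3 alone, bins past 5 points were 0 shifted in G7. The widest change between bins was at 10 Mb on chromosome 4 in G7. With a penalty of 3, the steps numbered 2 on chromosome 4 in B10, 1 on chromosome 4 in G7, 4 on chromosome 11 in B10, 7 on chromosome 11 in G7 and 2 on chromosome 17 in B10. In log2 fold enrichment, the steps numbered 0 on chromosome 11 in B10, 0 on chromosome 11 in G7 and 0 on chromosome 17 in G7. With a penalty of 6, the steps numbered 1 on chromosome 11 in G7 and 1 on chromosome 17 in G7.

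Leaving out 1 library at a time, the shift ran from 0.116 to 0.489 on chromosome 11 in G7. In the pieces it ran from -3.73 to -3.04 on the start to 44.1 Mb of chromosome 11 in G7, 0.276 to 0.802 on 44.1 to 115.2 Mb of chromosome 11 in G7, 1.94 to 2.23 on 115 to 122 Mb of chromosome 11 in G7, -2.58 to -2.1 on 66.4 to 94.88 Mb of chromosome 17 in G7 and 2.54 to 3.36 on 21.5 to 66.38 Mb of chromosome 17 in B10. The bins numbered from 1 to 4 shifted in B10, 0 to 3 shifted in G7 and 2 to 7 apart between the clones. The largest step lay from 5 to 70 Mb on chromosome 4 in G7, 20 to 45 Mb on chromosome 11 in G7 and 20 to 55 Mb on chromosome 17 in G7. Paired differences of same-numbered libraries changed no other value beyond the spread. Read depth is unknown, and the precision of a rank is limited by the 3 libraries of a line.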
